A study of Oryctolagus cuniculus with 8 samples.

Results

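TNNC2, CKMT2, SGCA and CRYAB are genes that act in striated muscle, the tissue of skeletal muscle and heart. Their RNA was measured in cultured Dutch rabbit cells that are pluripotent, meaning able to form all tissues of the body, and in the body cells from which some of them were made. All probes whose RefSeq accession belongs to 1 of the 4 genes were taken, which gave 5 of the 43603 probes on each array. TNNC2, CKMT2 and SGCA had 1 probe each and CRYAB had 2, named A_04_P000781 and A_04_P004976. They are 4 of 680 genes that could be named on these arrays. The genes were chosen by their measured levels on these arrays, as being high in pluripotent cells, so their levels in embryonic stem (ES) and induced pluripotent stem (iPS) cells against somatic cells are described here without a test. That label held for TNNC2 and CKMT2. It did not hold for SGCA, which was lower in ES and iPS cells than in somatic cells, and the 2 CRYAB probes differed from each other.

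The study compared ES cells, iPS cells and somatic cells, with 8 samples on 1 array each. The ES group held the lines rdES4 and rdES2-1. The iPS group held line iPS-L1, made from liver cells and taken at passages 7 (early) and 23 (late), and line iPS-S1, made from stomach cells and taken at passages 6 (early) and 22 (late). The somatic group held 1 culture labelled liver cells and 1 labelled stomach cells. All cells were of the Dutch strain, ES and iPS cells grew in stem cell medium and somatic cells in another, so medium and cell type go together. The labels give no age, sex, reprogramming factors or feeder cells, each origin is represented by 1 iPS line, and nothing says that the 2 arrays of a group came from separate animals, so p-values measure only the spread between these samples.

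In muscle, contraction begins when calcium leaves an internal store, the sarcoplasmic reticulum, and binds troponin C on the thin filament, which frees actin for myosin. TNNC2 encodes the troponin C of fast skeletal fibres. CKMT2 encodes the creatine kinase of muscle mitochondria, which charges creatine with phosphate as an energy reserve. SGCA encodes alpha-sarcoglycan, a subunit of the dystrophin complex that ties the cytoskeleton to the matrix outside the fibre. CRYAB encodes alphaB-crystallin, a small heat shock protein that protects the Z disc and desmin filaments and is also abundant in the lens.

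The values are log2 signals relative to the 75th percentile of the array, so that 0 is that percentile and a step of 1 is a doubling. That percentile lay between 273.8 and 341.3 signal units on ES and iPS arrays and was 163.5 for liver and 154.7 for stomach cells, and 57.79% to 64.65% of probes carried the scanner software's mark for a signal well above background. POU5F1, the transcription factor Oct4 of pluripotent cells, lay between 6.69 and 7.62 on the ES and iPS arrays and at -3.62 and -3.46 in liver and stomach cells. Albumin (ALB), the defining product of hepatocytes, and the acid pump subunit ATP4B of the gastric gland stayed without that mark on all 8 arrays, liver and stomach cells included. The hepatocyte gene APOA1 also carried it on none of the 8 arrays. Other hepatocyte genes carried it on both somatic arrays (TF, HP, HPX, RBP4 and APOE), as they did on the ES and iPS arrays. So did the gastric gene PGC, while ATP4A carried it on 1 somatic array. Decorin (DCN), a matrix proteoglycan of fibroblasts, was at 4.44 and 5.42 in the somatic cultures. None of 18 listed myogenic transcription factors, MYOD1 and MYOG among them, had a probe that could be named. In such bulk samples, fewer cells of a type and less RNA per cell cannot be told apart.

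**Figure D1:**
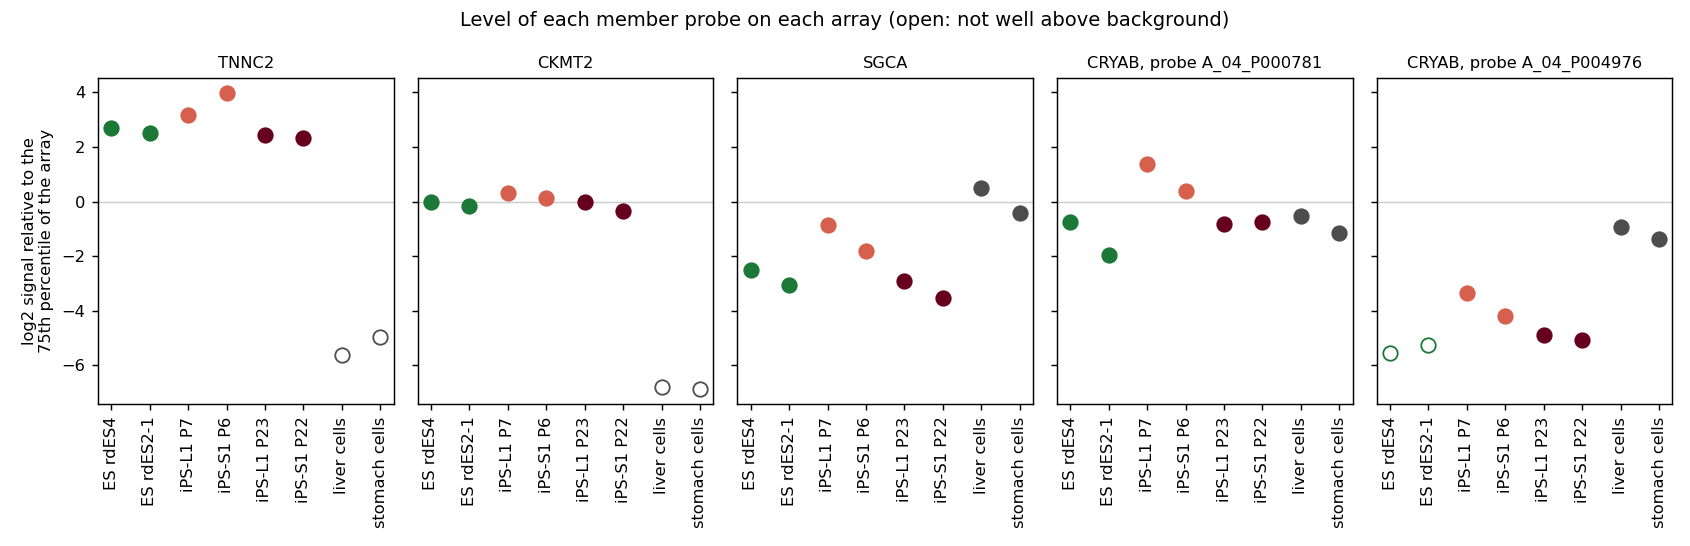
Level of each member probe on each of the 8 arrays, as log2 signal relative to the 75th percentile of the array. Points are single arrays (green ES, light red early iPS, dark red late iPS, grey somatic) and open points were not well above background. TNNC2 and CKMT2 are far above the somatic arrays on all 6 ES and iPS arrays, SGCA and CRYAB probe A_04_P004976 lie below them, and CRYAB probe A_04_P000781 overlaps them.

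TNNC2 was bright in every pluripotent culture. Its level was 2.70 in rdES4 and 2.51 in rdES2-1, 3.16 and 3.97 in the liver and stomach iPS lines at early passage, and 2.46 and 2.34 in the same lines at late passage. In liver and stomach cells it was at -5.64 and -4.95 and not well above background, so that the somatic level is only an upper bound. The stomach line at early passage was the highest array, and no ES or iPS array came near the somatic ones. A lower bound on the fold sets the mean of the bright group against a floor for each dim array, which is its dimmest clearly detected probe unless the probe itself reads higher. By this bound TNNC2 was at least 189.8-fold higher in iPS cells and at least 146.4-fold higher in ES cells.

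CKMT2 followed the same split with less variation among the pluripotent cultures. Its level was -0.02 and -0.15 in the ES lines, 0.32 and 0.14 in the early iPS arrays, and 0.00 and -0.34 in the late ones, a total range of under 1 log2 unit. Liver and stomach cells were at -6.79 and -6.88, and the scanner software put the error of these signals at 99.6% and 99.7% of their size. CKMT2 was thus at least 24.6-fold higher in iPS cells and at least 22.7-fold higher in ES cells. The measured differences were 6.86 and 6.75 on the log2 scale, before the floor replaced the somatic signals.

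SGCA lay on the other side. Its level was -2.52 and -3.08 in the ES lines, -0.86 (liver line) and -1.81 (stomach line) in early iPS cells, -2.93 and -3.55 in late iPS cells, and 0.48 in liver and -0.43 in stomach cells. The probe was well above background on all 8 arrays, and every ES and iPS array was below both somatic arrays. The group means differed by -2.32 on the log2 scale for iPS against somatic cells, a 4.98-fold lower level, and by -2.82 for ES against somatic cells, a 7.08-fold lower level. The SD between the somatic arrays was 0.64 and that between the ES lines 0.39.

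The 2 CRYAB probes carry the same accession and differed in how ES and iPS cells stood against somatic cells. With probe A_04_P000781 the levels were -0.76 and -1.97 in ES lines, 1.38 and 0.37 in early iPS arrays, -0.81 and -0.73 in late iPS arrays, and -0.52 and -1.14 in liver and stomach cells. Both early iPS arrays were above both somatic arrays, rdES2-1 was below both, and the other 3 arrays lay between them. The difference of means was 0.88 for iPS and -0.54 for ES against somatic cells, and the latter was 0.34 without scaling between arrays and 0.07 without rdES2-1. With the mean of both probes in place of this one, iPS cells were lower than somatic cells, at -1.18.

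With probe A_04_P004976 the levels were -5.55 and -5.25 in the ES lines, where it was not well above background, -3.35 and -4.21 in early iPS arrays, -4.90 and -5.07 in late iPS arrays, and -0.92 and -1.37 in liver and stomach cells. Every ES and iPS array was below both somatic arrays, by -3.24 on the log2 scale for iPS cells. ES cells were at least 18.1-fold lower. The scanner software put the error of this probe's signal between 11.4% and 29.5% on the ES and iPS arrays, against 10.2% in liver cells. Which transcripts each probe detects was not tested, since the files give no probe sequences.

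Counted over probes, all 6 ES and iPS arrays were above both somatic arrays for 2 of the 5, a pattern shown by 38% of all 28848 tested probes. They were below both for another 2 of the 5, against 35.1% of all tested probes. The median difference of the 5 probes between iPS and somatic cells was 0.88, beside 0.02 over all tested probes. These shares describe the comparison from which the genes were proposed and are given for scale. With normexp, a background correction that raises dim signals, the difference of iPS from somatic cells was 4.46 for TNNC2, 1.96 for CKMT2 and -1.56 for SGCA.

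The late and early passages of the iPS lines were compared to see how these genes stood after prolonged culture. All 5 probes were lower at late passage in both lines, as were 35.7% of all tested probes. Both late arrays were below both early arrays for all 5, against 25.3% of all tested probes, and the median difference was -1.20 beside -0.02 over all tested probes. None of the 5 passed the threshold of 0.05 on the adjusted p, which 0.0277% of all probes (8 of 28848) passed in this comparison. The widest margin was for SGCA, by -1.90 ± 0.46 on the log2 scale (SE, n = 2 lines, limma adjusted p = 0.459, unadjusted p = 0.00605). SGCA was 4.19-fold lower late than early in the liver line and 3.33-fold lower in the stomach line.

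For CRYAB, the difference late minus early was -1.65 ± 0.50 (SE) with probe A_04_P000781 (limma adjusted p = 0.528) and -1.20 ± 0.32 with probe A_04_P004976 (limma adjusted p = 0.497). Both probes thus had lower values at late passage, although they stood differently against somatic cells. With normexp, late minus early was -1.35 with the first probe and -0.25 with the second. In the liver line the 2 probes were 4.56-fold and 2.92-fold lower late than early, and in the stomach line 2.14-fold and 1.81-fold lower. The late arrays of the 2 lines were within 0.08 log2 units of each other with the first probe and within 0.16 with the second.

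TNNC2 was lower late than early by -1.16 ± 0.33 (SE, limma adjusted p = 0.515), with 1.63-fold in the liver line and 3.08-fold in the stomach line. CKMT2 differed least, by -0.40 ± 0.16 (limma adjusted p = 0.594), 1.25-fold in the liver line and 1.40-fold in the stomach line. Both arrays of a line were on 1 slide (the liver line on slide 1, the stomach line on slide 3), so these line values are also within-slide values. With the line as a replicate block, which pairs the arrays of a line, the 8 calls over all probes went to 0 and the adjusted p of the 5 probes lay between 0.369 for SGCA and 0.525 for CKMT2. Unadjusted, all 5 probes had a limma p under 0.05, the highest being 0.0471 for CKMT2, and 8.36% of all tested probes did (2413), 4.96% with a lower value.

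**Figure D2:**
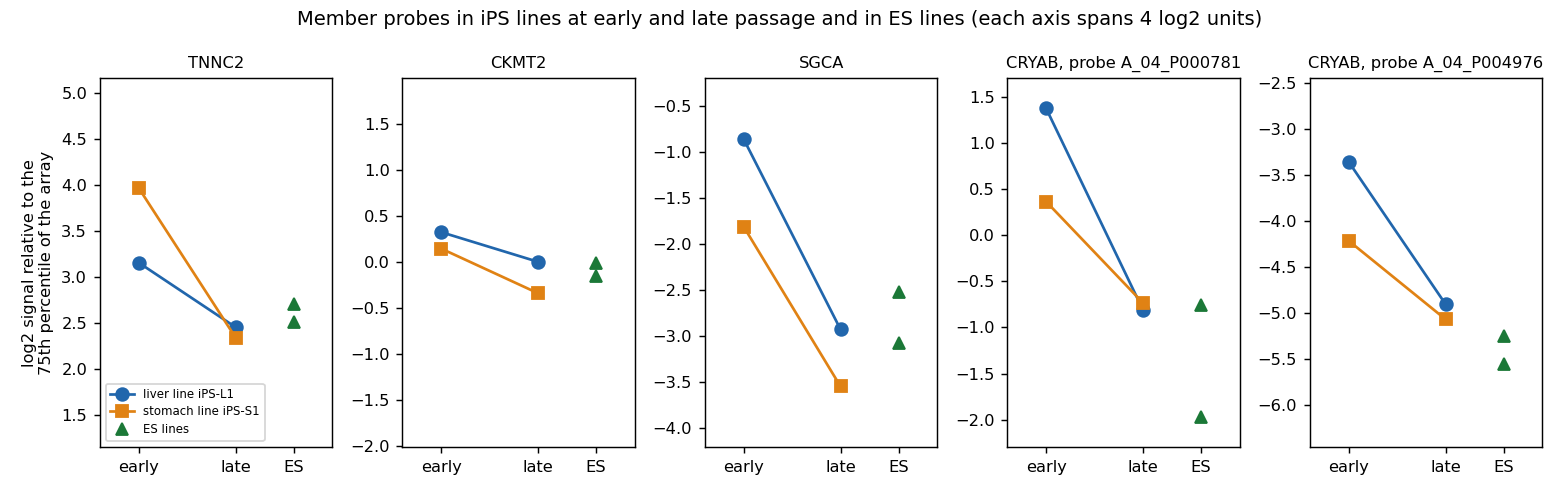
Level of each member probe in the iPS lines at early and late passage (lines join the arrays of 1 line) and in the 2 ES lines, as log2 signal relative to the 75th percentile of the array. Each vertical axis spans 4 log2 units. Late arrays are below early arrays in both lines for all 5 probes, and the early arrays lie above both ES lines, of which CRYAB probe A_04_P004976 was not well above background.

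Beside these values, markers of mesenchymal cells were uneven. The fibroblast list had 4 tested genes, of which 2 were lower and 1 was higher at late passage in both lines. The caveolar coat gene CAV1 was at 0.36 and -0.31 early and at -2.67 and -3.57 late (limma adjusted p = 0.195), while MGP, an inhibitor of calcification detected on 3 of the 4 iPS arrays, was at -6.01 and -4.37 early and -1.31 and -0.98 late (limma adjusted p = 0.395). DCN was not well above background on any ES or iPS array. Summed over the list, the linear level relative to the 75th percentile was 1.88 to 2.21 in ES cells, 2.65 to 3.14 in early iPS cells, 2.08 to 2.36 in late iPS cells and 106 to 198 in somatic cells. The 2 tested smooth muscle genes, ACTA2 and CALD1, summed to 17.2 to 25.3 in ES, 34.5 to 39.1 in early iPS, 23.0 to 23.8 in late iPS and 81.5 to 223 in somatic cells. Their part in the passage values was not tested.

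iPS cells were also set against ES cells, with the early and late arrays of a line averaged. No probe of the array passed in this comparison (0% called by limma, with 7.41% or 2139 probes at an unadjusted p under 0.05, and 1.72% of all probes so and higher), and the 5 probes were no exception. All 5 had a higher mean in iPS cells, with a median of 0.51 beside -0.00 over all tested probes. CRYAB was higher by 1.42 ± 0.47 with probe A_04_P000781 (SE, n = 2 lines against 2 lines, limma adjusted p = 0.616) and by 1.02 ± 0.26 with probe A_04_P004976 (limma adjusted p = 0.525). The SE and p rest on a spread shared with the somatic group, so the difference between liver and stomach cells enters them. With the second probe, ES cells had only an upper bound, and iPS cells were at least 1.91-fold higher. That bound depended on the background correction. With normexp the difference was 0.045 with the second probe and 1.06 with the first.

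SGCA was higher by 0.51 ± 0.43 (limma adjusted p = 0.847), with a 95% interval from -0.60 to 1.62. TNNC2 was higher by 0.37 ± 0.28 (limma adjusted p = 0.824, interval -0.33 to 1.08) and CKMT2 by 0.12 ± 0.15 (limma adjusted p = 0.914, interval -0.28 to 0.51). The interval was narrowest for CKMT2. Without the early array of the stomach line, TNNC2 was at -0.03 and CKMT2 at -0.01, and without the early array of the liver line SGCA was at -0.01. On slide 1, which held rdES4 and both arrays of the liver line, the line's mean differed from rdES4 by 0.10 for TNNC2, 0.18 for CKMT2, 0.62 for SGCA, and 1.04 and 1.42 for the CRYAB probes.

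The early and late arrays joined in the iPS mean stood differently against the ES lines. Both early arrays were above both ES lines for all 5 probes, as they were for 24.3% of all tested probes. Both late arrays were above both ES lines for 1 of the 5, CRYAB probe A_04_P004976 (19.4% of all probes), and below both for 1, TNNC2 (24.2% of all probes). Early minus ES was 0.96 for TNNC2, 0.32 for CKMT2, 1.46 for SGCA, and 2.24 and 1.62 for the CRYAB probes. Late minus ES was -0.21, -0.09, -0.44, 0.59 and 0.42 in the same order. For CRYAB probe A_04_P004976 the ES lines were not well above background. Its bounds against them were at least 2.90-fold higher for early and at least 1.26-fold higher for late iPS cells. These values share the ES arrays and were not tested.

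The liver and stomach lines could not be tested against each other, since each origin has 1 line. The liver line was above the stomach line at both passages for 3 of the 5 probes, against 29.7% of all tested probes. SGCA was higher in the liver line by 0.95 early and 0.62 late, and CRYAB probe A_04_P004976 by 0.86 and 0.16. CKMT2 was higher there by 0.18 and 0.34. TNNC2 was lower in the liver line by -0.81 early and was higher by 0.11 late. Of the somatic cultures, liver cells were above stomach cells by 0.91 for SGCA and by 0.62 and 0.45 for the CRYAB probes, while the SD of this difference over all tested probes was 0.76.

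Other genes of striated muscle were taken from 9 lists of 170 symbols, of which 56 had a named probe and 41 could be tested. The 41 included CRYAA, which the lens list also holds, and CKB, the brain form of creatine kinase. In iPS against somatic cells 8 were called higher and 17 lower, or 61% called beside 66.6% of all probes (34.2% higher, 32.4% lower). Of the former, CASQ1, SYPL2 and SRL were undetected in somatic cells and entered the test through the ES and iPS arrays. Of the latter, SSPN was detected on no ES or iPS array. TPM2 and PLN were detected on no ES array and on 1 and 2 of the 4 iPS arrays. SSPN, TPM2 and PLN thus entered the test through the somatic arrays. In ES against somatic cells 7 were called higher and 16 lower, or 56.1% beside 63.9% of all probes (34.3% higher, 29.7% lower). The median difference was -0.68 for iPS and -0.97 for ES cells, beside 0.02 and 0.07 over all tested probes. The balance of calls turned with the scaling. In iPS against somatic cells 15 genes were higher and 13 lower with no scaling between arrays, and 4 were higher and 31 lower with normexp. In ES against somatic cells 14 were higher and 12 lower with no scaling. Over all probes, 51.4% of the calls in iPS against somatic cells were higher. This share was 82.5% with no scaling, which shifted the median of all probes to 1.03, and 33.2% with normexp, which shifted it to -0.40.

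Among contractile proteins, the regulatory myosin light chain of fast fibres, MYL11, rose with TNNC2. It was at -0.31 and -0.11 in the ES lines, between -0.23 and 0.22 on the iPS arrays, and at -3.23 and -3.00 in liver and stomach cells. The difference was 3.11 ± 0.17 for iPS (SE, limma adjusted p = 0.000198) and 2.91 for ES cells (limma adjusted p = 0.000227). The partner of TNNC2 in the fast troponin complex, the inhibitory subunit TNNI2, went the other way, with a difference of -2.36 ± 0.53 for iPS (limma adjusted p = 0.0129, and not called with slide as a block) and -2.99 for ES cells (limma adjusted p = 0.006). The tropomyosins TPM2 (-4.50 for iPS, limma adjusted p = 0.00066, detected on 1 of the 4 iPS arrays) and TPM1 (-1.39, limma adjusted p = 0.0149), which lie along actin, fell as well, TPM1 not without scaling between arrays. The fast myosin heavy chain MYH1 and light chain MYL1 were detected on none of the 8 arrays.

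Of 3 tested genes of the creatine system, 1 was called in iPS against somatic cells (33.3%, beside 66.6% of all probes). The creatine transporter SLC6A8 fell in iPS (-2.04 ± 0.24 SE, limma adjusted p = 0.00156) and ES cells (-2.36, limma adjusted p = 0.001). The muscle cytosolic creatine kinase CKM was at -0.77 ± 0.67 (limma adjusted p = 0.346) and was called lower with normexp, with slide as a block and without the late stomach line. The brain form CKB was at 0.27 ± 0.30 (limma adjusted p = 0.466) and was called higher without scaling and without the liver cells. CKB was bright on every array, from 4.44 in stomach cells to 5.38 in rdES4.

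In the dystrophin complex, SGCA was joined by genes on both sides. Sarcospan (SSPN), a membrane partner of the sarcoglycans, was detected on no ES or iPS array. Its level in iPS cells was lower by at least 12.8-fold (limma adjusted p = 0.000192). SSPN entered the test through the somatic arrays, so that the p-value sets signal against background. Beta-sarcoglycan (SGCB), which assembles with SGCA, was higher by 0.80 ± 0.16 (limma adjusted p = 0.0091), but lower with normexp (-0.38, limma adjusted p = 0.0134) and not called with slide as a block. Dystroglycan (DAG1), the receptor for laminin, was at 0.39 ± 0.15 (limma adjusted p = 0.0666) and was called higher under 4 alternatives, normexp and no scaling among them, while its other probe pointed the opposite way.

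The calcium handling list was split, with 6 genes higher and 5 lower of 18 tested in iPS against somatic cells (61.1% called, beside 66.6% of all probes). Phospholamban (PLN), the calcium pump inhibitor of heart and slow muscle, fell by 3.31 on the log2 scale in iPS cells (limma adjusted p = 0.00227). PLN was detected on 2 of the 4 iPS arrays and on neither ES array, and entered the test through the somatic arrays. Late minus early, it was at -1.77 in the liver line and 3.05 in the stomach line. The calcium channel subunits CACNB1 (-3.34, limma adjusted p = 0.00244) and CACNA2D1 (-2.65, limma adjusted p = 0.00293) fell too. CASQ1, the calcium store protein of fast muscle, was higher by 2.72 ± 0.48 (limma adjusted p = 0.00554). Somatic cells gave no signal clear of background. CASQ1 thus entered the test through the ES and iPS arrays, and the p-value sets signal against background. Its bound was at least 1.78-fold. CASQ1 was at -0.29 with normexp and not called with slide as a block.

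The other called genes of this list are named here after their values were seen. The release channel RYR1 was higher in iPS cells by 1.96 ± 0.31 (SE, limma adjusted p = 0.00373), with 1 of the 2 somatic arrays well above background, but was at -0.024 with normexp and not called with slide as a block. JPH1, which holds the calcium store to the surface membrane, was higher by 2.50 ± 0.74 (limma adjusted p = 0.0312), and was not called without either ES line or with slide as a block. The pump ATP2A2 was higher by 0.44 ± 0.15 (limma adjusted p = 0.0489) and lost its call under 8 alternatives. The mitsugumin gene SYPL2 and sarcalumenin (SRL) were counted as higher too, but were undetected in somatic cells and entered the test through the ES and iPS arrays. No bound above 1 could be given for either in iPS cells, and both were called lower with normexp (-0.49 and -0.60). The channel subunit CACNB3 (-1.84, limma adjusted p = 0.000917) and CASQ2, the cardiac form of the store protein (-1.38, limma adjusted p = 0.00272, not called without scaling), were lower. JPH2, the junction protein of heart, was at 0.02 in iPS cells (limma adjusted p = 0.926) but was called higher in ES cells (0.82, limma adjusted p = 0.0237). It was called lower with normexp (-0.63 in iPS and -0.30 in ES cells) and higher without scaling (1.04 and 1.69). Triadin (TRDN), a partner of the release channel, was detected on none of the 8 arrays.

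CRYAA, the other alpha-crystallin and the only further small heat shock gene with a named probe, fell in iPS (-2.16 ± 0.35 SE, limma adjusted p = 0.00418) and ES cells (-2.27, limma adjusted p = 0.00369). Of 9 tested genes of muscle metabolism, none rose and 5 fell in iPS cells (55.6% called, beside 66.6% of all probes, 34.2% higher and 32.4% lower). Muscle glycogen synthase (GYS1) was lower by -3.68 (limma adjusted p = 9.46e-05), the aldolase ALDOA by -2.19 (limma adjusted p = 0.000543), the insulin-dependent glucose transporter SLC2A4 by -2.11 (limma adjusted p = 0.00344) and the phosphorylase kinase subunit PHKA1 by -1.17 (limma adjusted p = 0.00938, not called without scaling). Of the Z disc list, MYOZ1 (0.35, limma adjusted p = 0.679, but called lower with normexp) and ANKRD1 (0.13, limma adjusted p = 0.971) were tested and did not pass.

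**Figure D3:**
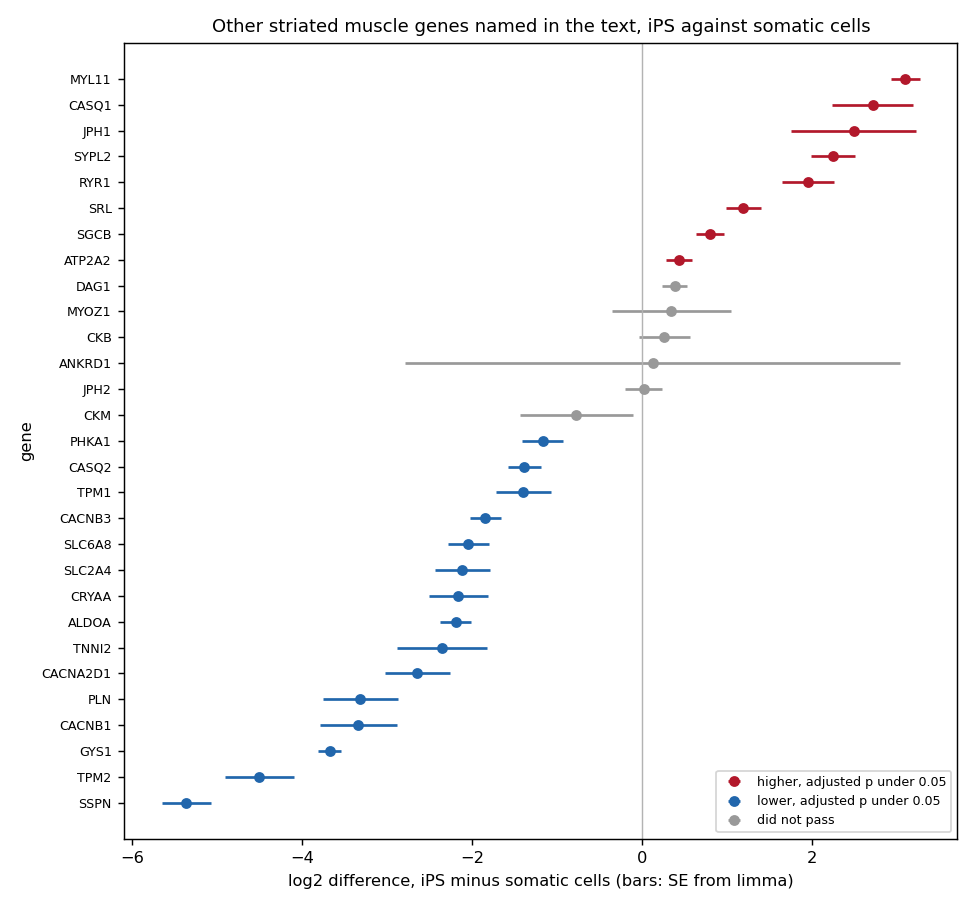
Log2 difference of iPS minus somatic cells for 29 genes of the striated muscle lists that the text names, the 4 members left out. Bars are the SE from limma. Red points were higher and blue points lower at an adjusted p under 0.05, and grey points did not pass. The plot shows 8 genes higher, led by MYL11, and 15 lower, led by SSPN. CASQ1, SYPL2 and SRL were undetected in somatic cells, and SSPN was undetected in ES and iPS cells.

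None of the 41 genes passed in iPS against ES cells or in late against early iPS cells, by limma, with 3 and 6 of them at an unadjusted p under 0.05. In the passage comparison 15 of the 41 were lower late than early in both lines, beside 35.7% of all probes.

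Among 507 other named genes, likeness to each member was measured by Pearson's r over the 8 arrays, which share scaling and the split between somatic and other arrays. For TNNC2 the closest were MYL11 (r = 0.996), POU5F1 (0.994) and GCSH (0.994), and 73 genes had r above 0.9. For CKMT2 they were POU5F1 (0.999), GCSH (0.999) and NASP (0.998). For SGCA they were CD1D (0.959), CAV1 (0.952) and SLC6A8 (0.951). CRYAB probe A_04_P000781 was closest to NXPE1 (0.869), ACP5 (0.832) and MAP2K1 (0.829), with no gene above 0.9, whereas probe A_04_P004976 was closest to CAV1 (0.989), FAS (0.987) and LASP1 (0.978), with 87 genes above 0.9. The 2 CRYAB probes correlated at 0.165 over the 8 arrays and at 0.893 over the 6 ES and iPS arrays.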

How the data were processed

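Total RNA was labelled with Cy3 and hybridised to 1-colour Agilent arrays, 1 for each sample. The deposited files hold intensities for each spot, already background-subtracted by Agilent Feature Extraction 10.5.1.1, per the file headers. A further table deposited by the authors holds log2 values. These equalled the log2 intensities minus the 75th percentile of the array, centred on the median of each probe, with a correlation of 1 on every array and column medians between -0.042 and 0.342, and served as an alternative. Other deposited columns were marks of 0 or 1 for each spot.

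The log2 intensity was taken relative to each array's 75th percentile, and spots of 1 probe were averaged. The 19 probes left without an unmarked spot on an array were dropped, and no spot was saturated. Probes well above background on both arrays of at least 1 group were tested (28848). Accessions were turned into symbols with RefSeq's rabbit genes (assembly mOryCun1.1), which named 1933 probes, and the brightest probe stood for a list gene. Tests used limma 3.58.1 in R 4.3.3, two-sided, with Benjamini-Hochberg adjustment over all tested probes. Early and late arrays of a line were averaged for comparisons with ES and somatic cells (6 units, 3 groups), and all 8 arrays in 4 groups served the passage comparison. In each fit all groups shared an estimate of the spread, which includes the difference between liver and stomach cells. The fits were run on simulated data with independent noise on every array, which leaves out any likeness between arrays of a line. Only 2 arrays a group limit the precision.

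The arrays lay on 3 slides, of which slide 1 held rdES4, both liver line arrays and the liver cells, slide 2 rdES2-1 and the stomach cells, and slide 3 the stomach line. For the line values and the replicate block, early and late arrays were paired by the line named in the labels. The main passage fit had no term for the line. The 4 genes and all lists were chosen with earlier results of these data known. Genes of the lists were named by a rule: up to 4 a list past the threshold against somatic cells by size, with up to 2 that did not pass or were not detected, and the 3 genes most like each member. Alternatives were quantile normalization, no scaling, normexp (offset 50, on median signals, since the files hold no mean signal), the authors' table, 2 other filters, the mean of a gene's probes, slide and replicate blocks, and leaving out each array. Promoter, protein and probe sequences were not used here.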

Additional observations from a re-analysis of the deposited data

How the results depend on the processing

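Up to 17 alternatives were run for each result. The blocks and filters give no value for the untested differences of the 5 probes from somatic cells, and the replicate block was run only for iPS against somatic and late against early iPS cells. No alternative gave any of the 5 probes an adjusted p under 0.05 by limma in iPS against ES or late against early iPS cells, where it ranged for late against early from 0.245 (TNNC2), 0.471 (CKMT2), 0.257 (SGCA), 0.327 (CRYAB A_04_P000781) and 0.171 (CRYAB A_04_P004976) up to 1. The cause of the changes that follow was not tested. With quantile normalization, CKMT2 differed from somatic cells by 7.48 in iPS and 7.36 in ES cells. Without scaling, the differences of iPS and ES from somatic cells were 9.29 and 8.77 for TNNC2, 7.87 and 7.62 for CKMT2, -1.30 and -1.95 for SGCA, 1.89 and 0.34 for CRYAB A_04_P000781, and -2.23 and -3.38 for CRYAB A_04_P004976, the other muscle genes higher numbered 15 and 14, and 2 probes were called in iPS against ES cells. With normexp they were 4.46 and 4.01 for TNNC2, 1.96 and 1.88 for CKMT2, -1.56 and -1.86 for SGCA, and -1.52 and -1.57 for CRYAB A_04_P004976, with 4 and 4 muscle genes higher and 31 and 30 lower. Normexp also turned the sign in iPS cells of MYOZ1 (-0.67), SGCB (-0.38), CASQ1 (-0.29), RYR1 (-0.024), SYPL2 (-0.49) and SRL (-0.60), and in ES cells of SGCB (-0.25), CASQ1 (-0.28), SYPL2 (-0.42) and SRL (-0.55). The sign of JPH2 turned as well (-0.63 in iPS and -0.30 in ES cells). The probes called in late against early iPS cells (8) became 0 without a filter, 0 with only probes well above background on all 8 arrays (where 5 muscle genes were higher in iPS cells and TNNC2, CKMT2 and CRYAB A_04_P004976 were not tested), 4 with the mean of a gene's probes, 0 with slide as a block and 0 with the replicate block. That mean gave CRYAB -1.18 in iPS and -2.39 in ES against somatic cells. Slide as a block left 9916 probes called and 2 muscle genes higher in iPS against somatic cells. Leaving out 1 array at a time gave 0 to 101 probes in late against early iPS cells (0 without either ES line, 101 without the early stomach line), 0 to 35 in iPS against ES cells, and 7 to 11 muscle genes higher in ES against somatic cells. It gave iPS minus somatic values of 7.87 to 8.68 for TNNC2, 0.33 to 1.43 for CRYAB A_04_P000781 and -3.63 to -2.85 for CRYAB A_04_P004976. ANKRD1 was 4.76 in iPS and 3.52 in ES cells without the liver cells, and -4.50 in iPS and -5.74 in ES cells without the stomach cells. Signal near background limits TNNC2 and CKMT2 in somatic cells and CRYAB A_04_P004976 in ES cells.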

Other observations

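Because alphaB-crystallin is also a lens protein, genes of the lens were set beside CRYAB. Of 6 tested genes of the lens list, 1 was called higher and 4 fell in iPS against somatic cells (83.3% called, beside 66.6% of all probes). In ES against somatic cells 1 was called higher and 1 fell (33.3% called, beside 63.9% of all probes). The gene called higher was LIM2, a membrane protein of lens fibres. LIM2 was at -1.70 and -1.03 in the ES lines, between -2.64 and -1.11 on the iPS arrays, and not well above background in liver (-6.78) or stomach cells (-6.94). It entered the test through the ES and iPS arrays, and its bound was at least 7.19-fold in iPS and at least 9.33-fold in ES cells. The genes that fell in iPS cells were CRYAA, the crystallins CRYBB2 (-0.89, limma adjusted p = 0.0118) and CRYGS (-0.79, limma adjusted p = 0.00724), and the water channel MIP (-1.20, limma adjusted p = 0.0492). CRYAA was also counted in the muscle lists.

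ANKRD1, a stress-responsive partner of titin, differed most between the somatic cultures among the muscle genes named, at 5.05 in liver and -4.21 in stomach cells, with 1 array each and no test. HRC, a calcium-binding protein of the calcium store, was well above background on 2 of the 8 arrays, the liver line at early passage (-1.76) and the stomach line at late passage (-3.99). Its other iPS arrays were at -6.17 and -7.33.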
